A study of Mus musculus with 10 samples.

Results

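The livers described here came from mice that were fed a high-fat diet and injected with a control antisense oligonucleotide (ASO), a short modified strand of nucleic acid that is not directed at a mouse gene, which makes them the baseline of a study of Mboat7 knockdown. They were chosen as the 5 libraries that the labels call Control ASO, out of 10 libraries in the series, and no other library is used below. The animals were male C57Bl6/J mice, 8 weeks old at the start, that received the ASO at 12.5 mg/kg by intraperitoneal injection for 20 weeks while eating the D12492 diet. The labels name the tissue Normal Liver, although the diet is one that fattens the liver, and the study's methods describe snap-frozen pieces of whole liver taken after perfusion with saline, in most cases after a short fast. Libraries are numbered in the labels (replicates 1 to 5, abbreviated R1 to R5 below), whether every number stands for a mouse of its own is not said, and with a single group there is no contrast to test.

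The liver is built mostly of hepatocytes, large cells that make the bulk of the proteins of blood plasma, dispose of ammonia as urea, oxidize and synthesize fatty acids, and modify drugs and steroids. Their work is divided along the path of the blood. Cells near the portal vein favour urea and glucose production, while cells near the central vein favour glutamine synthesis, bile acid synthesis and the cytochrome P450 enzymes. Many hepatic genes also depend on sex, because the pulsed growth hormone of male mice sustains one set of genes and the steadier hormone of females another, and many follow the clock or the last meal. Macrophages (Kupffer cells), endothelial cells and fat-storing stellate cells line the blood spaces between the hepatocytes.

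Gene counts summed to between 25153235 and 27912213 per library, so that 1 count was worth 0.0358 to 0.0398 CPM (counts scaled to a library sum of 1000000). Every pair of libraries differed by more than sampling noise (chi-square divided by degrees of freedom 25.4 to 79.2 across genes), and all were kept as separate replicates. On principal components of log2 CPM, R2 stood apart along the first component (44.4% of the variance) and R1 along the second (29.1%), so measures of spread that rest on 1 of these libraries are given with and without it. For the label liver, 12 of 12 defining markers of hepatocytes were above 10 CPM and together took 14.0% ± 0.643 of all counts (SD, n = 5). Markers of other organs summed to 0.0253% of counts. The targeted gene of the series, Mboat7, stood at 39.9, 40.004, 40.4, 38.3 and 34.3 CPM in R1 to R5, somewhat lower in R5 than in the others. Xist was at most 0.152 CPM (1 to 4 counts). Of 6 listed Y-linked genes, the 4 kept were above 10 CPM, and the others had at most 5 counts in any library.

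Of 24411 genes in the table, 7204 had no count in any library, 14283 had a count in all 5, and 12021 reached 1 CPM in at least 1 library and were kept. The scale of abundance was steep. A mean of 10 CPM was reached by 7601 genes, 100 CPM by 1391, 1000 CPM by 121 and 10 times that level by only 5. A share of 50% of the counts lay in 186 genes on average, with 190, 184, 173, 181 and 191 genes in R1 to R5. The 10 leading genes took 19.7% of counts, the leading 100 took 42.6% and the leading 1000 took 72.4%. A long transcript yields more reads than a short one at the same number of molecules, so levels of different genes are ranked below after division by transcript length in kilobases and rescaling to a common sum per library (TPM). Shares of counts describe how the reads were spent and are not levels per length. On that scale the transcriptome was more concentrated, and 94 genes held 50% of it.

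**Figure D1:**
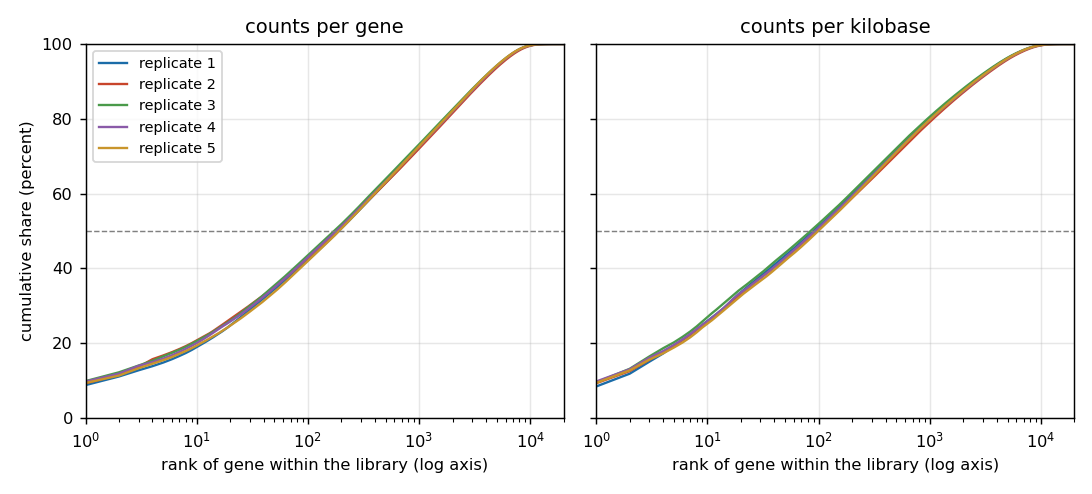
Cumulative share of a library (percent, vertical axis) held by its most abundant genes, ranked from 1 on a log axis, for counts on the left and counts per kilobase on the right. Each line is 1 of the 5 control ASO libraries and the dashed line marks 50%, which the libraries crossed between 173 and 191 genes by counts and between 85 and 100 genes per kilobase.

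Proteins destined for the blood dominated. The 7 classes of secreted proteins (plasma carriers, apolipoproteins, coagulation factors, complement, acute phase proteins, serpins and major urinary proteins) took 32.8% ± 0.749 of all counts (SD, n = 5) and 39.6% ± 0.830 per kilobase. They supplied 20 of the 30 leading genes on either scale. In all, 47 classes of genes accounted for 63.7% of counts.

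Albumin led every library. Alb (ENSMUSG00000029368.10, GRCm38 chr5:90460897-90476602, plus strand), which encodes the main carrier of fatty acids and hormones in plasma, had 88211, 93126, 98858, 97699 and 93890 CPM in R1 to R5, a mean of 94357 ± 4211 CPM (SD) or 9.44% of counts. R1 was lowest and R3 highest, with an SD of 4.46% of the mean. The iron carrier transferrin, Trf, had 16534, 21144, 18207, 20982 and 19563 CPM, though 82.0% of its exon length overlaps another annotated gene on the same strand, so reads of the pair cannot be separated with certainty. Transthyretin (Ttr), which carries thyroxine and retinol-binding protein, and the vitamin D carrier Gc were steady in all libraries. Ttr had 7890, 7846, 7944, 7822 and 7555 CPM, and Gc had 7202, 7421, 7277, 7317 and 7053 CPM, with SDs of 1.93% and 1.90% of their means. Plasma carriers as a class took 15.2% of counts in R1 and 16.2 to 16.9% in the others, and 6.86% ± 0.267 without Alb.

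Promoter sequence from RefSeq (build GRCm38.p6) was at hand for 9535 of the 12021 genes kept, and the 250 bases before each start were searched on both strands for GTTAAT, a half-site of the hepatocyte factor HNF1. This motif was in 4.21% of all these promoters, in 9 of 52 (17.3%) among the 100 genes of highest TPM, in 9 of 30 plasma carriers, 29.6% of coagulation factors, 44.4% of complement genes and 54.5% of serpins. The other classes of secreted proteins held it seldom or not at all, with 1 of 17 acute phase genes (5.88%), 0 of 18 apolipoproteins and 0 of 4 major urinary proteins. The 60 bases around the match nearest the start are shown for 3 secreted proteins to let the letters be seen, with the match in capitals (ATTAAC is the same motif read on the other strand). They lie at chr5:90460810-90460869 on the plus strand for Alb, at chr3:83049864-83049923 on the minus strand for Fgb, and at chr12:103956943-103957002 on the minus strand for Serpina1e.
Alb: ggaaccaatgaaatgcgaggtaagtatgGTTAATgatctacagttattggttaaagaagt
Fgb: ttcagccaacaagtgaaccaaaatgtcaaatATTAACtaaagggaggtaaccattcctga
Serpina1e: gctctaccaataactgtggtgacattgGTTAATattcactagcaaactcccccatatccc
The matches begin 32, 29 and 78 bases before the start annotated by RefSeq for Alb, Fgb and Serpina1e, which for Alb lies upstream of the gene start given above. A match is a description of the letters and not evidence that the factor was bound.

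Apolipoproteins, the protein coats of the particles that carry lipid through the blood, formed the second class on either scale, with 6.403% ± 0.341 of counts. Because most of them are short, their share was 12.4% ± 0.581 per kilobase. Apoe, a ligand for uptake of lipoprotein remnants, had 23072, 22468, 23588, 21176 and 19820 CPM in R1 to R5. By TPM the order after Alb (93073 TPM) ran Apoa2 (33362), Apoe (31347), Apoa1 (19480), Fabp1 (16450), Trf (15072) and Apoc1 (14244). Apoa1 and Apoa2 are the main proteins of high-density lipoprotein, and Fabp1 binds fatty acids within the hepatocyte. The large structural protein of very low density lipoprotein, Apob, shows what length does to the ranking, since it averaged 5307 CPM but only 765 TPM and moved to rank 160. Apoc3, an inhibitor of lipoprotein lipase, moved the other way, to rank 12 by TPM against 48 by CPM. Apoa4, an apolipoprotein of the gut and of fatty livers, had 3050, 4415, 1115, 1569 and 2004 CPM. Its level was 3.96 times as high in R2 as in R3, although 69.8% of its exons overlap a gene on the opposite strand. The most variable member of the class was Gm6484, whose levels are given below with the lipid genes.

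Clotting and complement proteins were among the least variable of the large classes. Coagulation and fibrinolysis factors took 3.50% ± 0.121 of counts. Fga, a chain of fibrinogen, had 4377, 3615, 4193, 4392 and 3671 CPM, and its partner chains Fgb and Fgg were likewise lower in R2 and R5 than in the other libraries. The prothrombin gene F2 ran from 2144 to 2369 CPM. Complement components took 2.19% ± 0.0683, and C3, the central component, had 5140, 5997, 6601, 7172 and 7032 CPM. Acute phase proteins, whose synthesis rises in inflammation, were less even, at 1.87, 2.27, 1.87, 2.40 and 1.75% of counts. Hpx, which binds free haem, had 5285, 8347, 4719, 6726 and 4542 CPM and was highest in R2, whereas the haemoglobin binder Hp, with 5191, 5812, 5183, 6545 and 4810 CPM, was highest in R4. Serpins outside the clotting system took 2.06% in R1 and 1.40 to 1.78% elsewhere, in part through Serpina3k, which had 8635 CPM in R1 and 4413 to 6125 CPM in the others.

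Enzymes of nitrogen and amino acid metabolism were the largest enzyme class on either scale, with 4.26% ± 0.337 of counts over 88 genes kept. Cps1, which makes the carbamoyl phosphate that enters the urea cycle, had 1701, 2391, 2692, 2872 and 2760 CPM and was lowest in R1. Arg1, the last enzyme of the cycle, had 1154, 1522, 1278, 1466 and 1175 CPM. Ass1, an enzyme of the same cycle that is abundant in liver, was listed at only 0.108 to 0.380 CPM (3 to 10 counts), and 55.3% of its 50-base windows also occur in annotated transcripts of other genes, pseudogenes included. Reads from such windows have several places to align, so the count of Ass1 is uncertain as a measure of its level. The methyl donor enzyme Mat1a had 3846 ± 613 CPM, and the tyrosine enzyme Hpd had 2331 ± 434 CPM (SD, n = 5). Both were lower in R1 and R2 than in the other libraries.

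Cytochrome P450 genes and their partners took 2.67% ± 0.397 of counts and differed by a ratio of 1.46 between the highest and lowest library, against 1.18 for nitrogen metabolism. Cyp2e1, which oxidizes ethanol and small ketones, supplied 37.9% of the class, with 9682, 6466, 12638, 9803 and 11998 CPM in R1 to R5. R2 was the lowest library and R3 the highest. Without Cyp2e1 the class took 1.66% ± 0.162, again lowest in R2. Cyp4a14 and Cyp4a10, omega-hydroxylases of fatty acids and targets of the nuclear receptor PPAR-alpha, were highest in R5 with 1163 and 594 CPM, against 518 to 822 and 230 to 372 CPM in the others.

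Genes that burn fatty acids took a larger share than genes that make them in 4 of 5 libraries by counts and in 5 of 5 per kilobase. Fatty acid oxidation and ketogenesis took 2.94, 2.84, 2.69, 2.69 and 3.06% of counts, and de novo lipogenesis with its elongases and desaturases took 1.39, 2.93, 1.01, 1.72 and 1.03%. In R2 the lipogenic share was slightly the larger by counts, but per kilobase it was 1.46% there against 2.44% for oxidation. The lipogenic share turned on Scd1 (ENSMUSG00000037071.3, chr19:44394455-44407879), the desaturase that makes oleic acid. Scd1 had 6489, 20693, 3701, 9495 and 4108 CPM, and without it the class took 0.744, 0.862, 0.637, 0.769 and 0.622%, so the rest of the class differed by 1.39 times between the highest and lowest library, against 5.59 times for Scd1. Fasn, fatty acid synthase, had 792, 846, 543, 900 and 622 CPM.

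Sugar metabolism took 1.90% ± 0.129 of counts. Conjugation enzymes took 1.84% ± 0.0689, led by the microsomal transferase Mgst1 (6716 ± 605 TPM). The alcohol and aldehyde enzymes took 2.62% ± 0.122, with Adh1 at 2284 to 2528 CPM in the 5 libraries and Aldh1a1 at 1662 to 2889 CPM. Antioxidant enzymes took 0.946% ± 0.0438, with catalase (Cat) at 2838 to 3318 CPM. These 4 classes differed by ratios of at most 1.16 between the highest and lowest library.

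**Figure D2:**
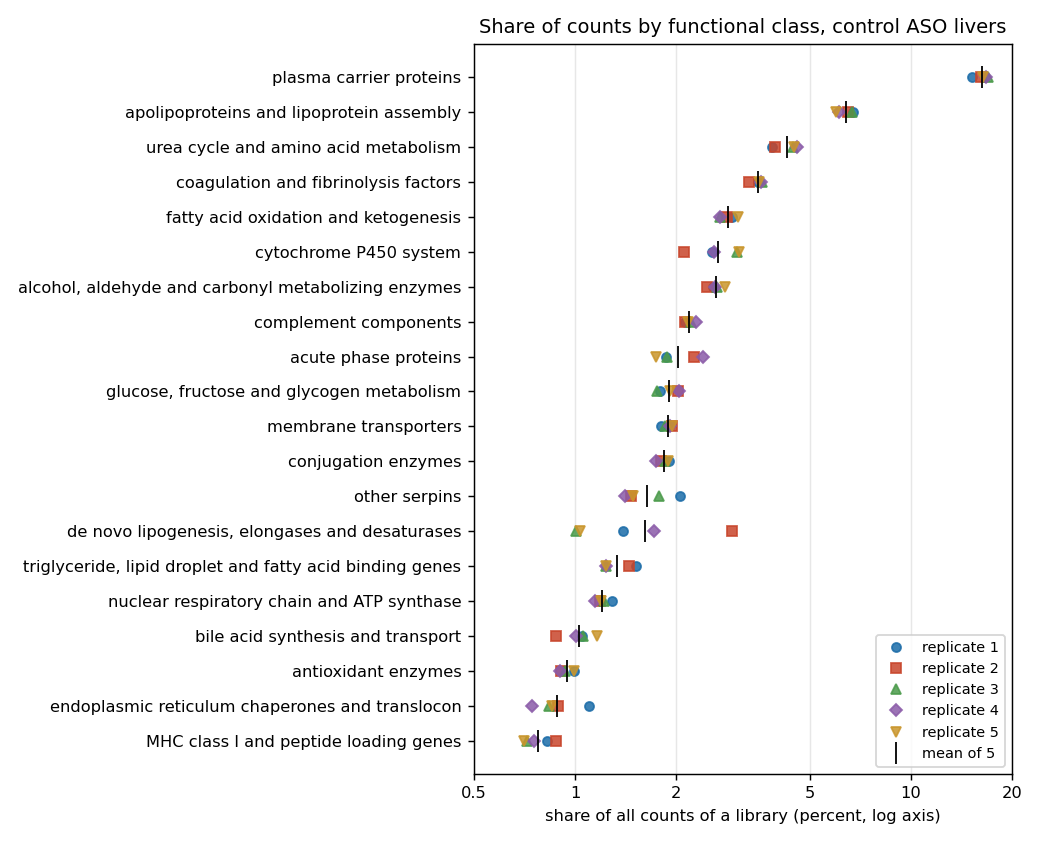
Share of all counts (percent, log axis) taken by the 20 largest functional classes in the 5 control ASO libraries, with a point for each library and a vertical mark for the mean. Plasma carriers took 15.2 to 16.9%, and the widest spread was that of de novo lipogenesis, from 1.01% in R3 to 2.93% in R2.

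Listed markers of cells other than hepatocytes took a small part of the counts. Stellate cell and fibroblast markers summed to 0.0577% of counts, sinusoidal endothelial markers to 0.0446%, Kupffer cell and macrophage markers to 0.0382%, general leukocyte markers to 0.0129%, cholangiocyte markers to 0.00779% and lymphocyte markers to 0.00109%. These are sums over 12 to 32 listed genes, so they give neither numbers of cells nor the whole RNA of a cell type. In bulk tissue fewer cells of a type cannot be told apart from less RNA per cell. The Kupffer cell lectin Clec4f had 24.3, 49.2, 36.1, 29.0 and 29.3 CPM. Stab2, the hyaluronan receptor of sinusoidal endothelium, had 27.3, 40.3, 41.0, 46.8 and 42.2 CPM. Among red blood cell genes Alas2 had 148, 171, 96.1, 102 and 98.3 CPM, while the globin genes Hba-a1, Hba-a2 and Hbb-b2 were listed at 0. A part of reads with several places to align in these zeros was not tested. They therefore do not show that globin RNA was absent.

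Translation factors, which serve the ribosome at each step of protein synthesis, were the most uniform class. They took 0.637, 0.644, 0.643, 0.655 and 0.645% of counts, a ratio of 1.03 between the highest and lowest library. Eef2, which moves the ribosome along the messenger RNA, had 1108, 1119, 1122, 1147 and 1136 CPM. Cytosolic ribosomal protein genes took only 0.257% ± 0.0138. Of the 87 in the table, the 34 that shared at least 50% of their 50-base windows with annotated transcripts of other genes had a median of 1.27 CPM, against 18.4 CPM for the other 53. Gapdh (82.5% shared) was similarly listed at 6.45 CPM on average, although Eef1a1 (56.5% shared) had 1048 CPM. Levels of such genes are uncertain.

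Spread within the group was measured by the edgeR coefficient of variation (CV), the square root of the dispersion of counts between libraries beyond counting error. A gene with 5 libraries gives a poor estimate of its own, so edgeR draws each value toward the trend of genes with similar counts. The common CV of all genes kept was 0.171. Among the 7601 genes whose mean reached 10 CPM the median was 0.113, with 5% of genes below 0.0922 and 5% above 0.223. The median was 0.257 for genes at 1 to 3 CPM, reached its lowest value of 0.106 at 30 to 100 CPM, and was 0.137 above 1000 CPM. In all, 58 genes exceeded 0.5.

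**Figure D3:**
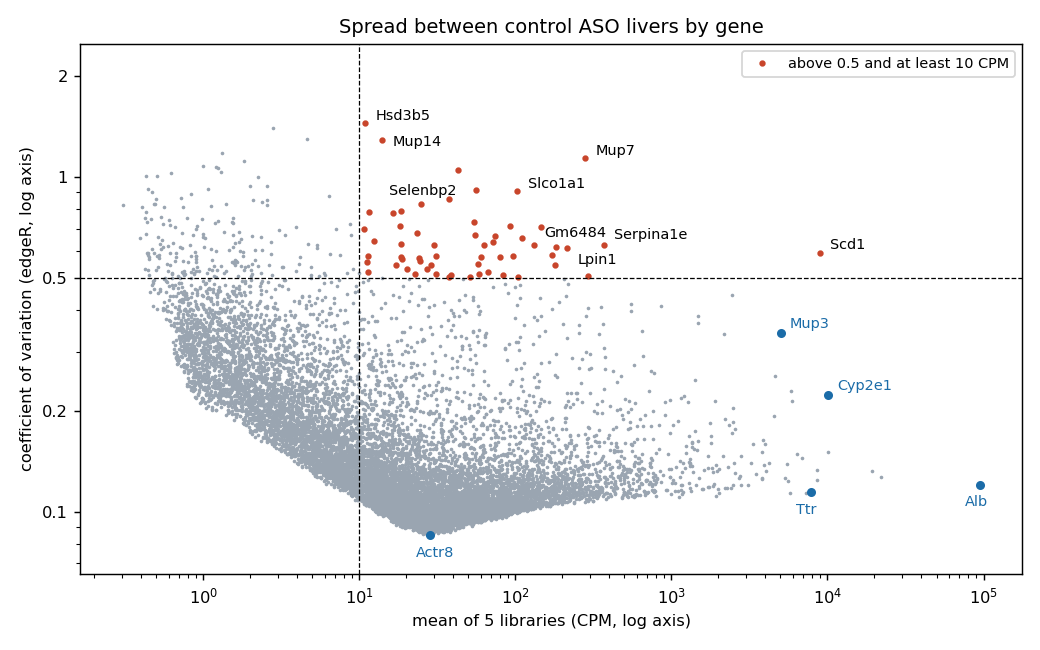
Coefficient of variation between the 5 control ASO livers (edgeR, log axis) against mean level (CPM, log axis), with a point for each gene kept. Red points are the 58 genes above 0.5 with a mean of at least 10 CPM, and blue points name genes discussed in the text. Alb and Ttr, at 0.12 and 0.114, lay close to the median of genes at 10 CPM or more (0.113), and Scd1 at 0.595 was the most abundant gene above 0.5.

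The 3 largest CVs belonged to a male-dependent enzyme and to major urinary proteins. Hsd3b5 (ENSMUSG00000038092.6, chr3:98618634-98630252), a steroid-reducing enzyme made by male mouse liver, had 45.6, 0.836, 6.64, 0.394 and 0.8287 CPM in R1 to R5 and the largest CV, 1.45, which was 0.967 without R1. Its values in R2, R4 and R5 rest on 22, 11 and 23 counts. Its level was far higher in R1 than elsewhere. Major urinary proteins, pheromone carriers that males secrete in bulk, were next with Mup14 (CV 1.29) and Mup7 (CV 1.14, or 0.786 without R1). Mup7 had 1003, 13.6, 186, 79.8 and 117 CPM, and Mup14 had 60.3, 2.17, 3.06, 1.90 and 2.27 CPM. For Mup14 the spread was that of R1 alone, since its CV was 0.239 without that library. Members of this family are near copies (96.4% of the windows of Mup7 and 97.6% of those of Mup14 are shared), so the split of reads among them is uncertain. Mup3, the most read member with 15.6% shared, had 7932, 2606, 6062, 4127 and 4485 CPM, and R1 was again the highest. The family as a whole took 1.19, 0.447, 0.744, 0.537 and 0.554% of counts. At 10 CPM or more, 6 of 6 members were highest in R1 (26.0% of all genes were). Only 2 of these 6 shared less than 50% of their windows, so the 6 do not count as separate observations.

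The list of genes higher in male mouse liver followed R1. It took 0.717, 0.365, 0.353, 0.247 and 0.240% of counts, and 13 of its 16 members at 10 CPM or more were highest in R1, where 26.0% of all 7601 such genes were highest. Of the 12 members that shared less than 50% of their windows, 11 were. The leading member, which supplied 38.4% of the list, is a major urinary protein, so the list is not separate from that family. Slco1a1, an organic anion transporter of male liver, had 263, 35.9, 159, 15.5 and 40.1 CPM, and was thus high in R3 as well. Cyp2d9 had 971, 269, 594, 470 and 436 CPM, and the fatty acid elongase Elovl3 had 184, 78.6, 77.1, 56.2 and 53.7 CPM. Genes higher in female liver were lowest in R1 in 7 of 8 cases, where 19.4% of all genes were lowest. They took 0.0418, 0.0654, 0.0809, 0.0812 and 0.0921% of counts. The prolactin receptor Prlr had 116, 121, 239, 202 and 232 CPM, and Cyp2b9 had 182, 216, 318, 359 and 434 CPM. Cyp2a4, a steroid hydroxylase of the same list, was also lowest in R1 but stood far highest in R2, with 6.17, 113, 18.5, 17.8 and 31.7 CPM. Its CV of 0.863 was 0.555 without R2. Y-linked genes mark male cells, and 4 of the 6 listed were kept. These were lowest in R1 in 4 of 4 cases, as in Ddx3y with 63.4, 73.8, 80.9, 86.4 and 80.2 CPM, and were present in every library.

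Other genes of large spread divided the libraries differently. Cish, a feedback inhibitor of cytokine and growth hormone receptors, had 38.6, 9.76, 65.7, 18.8 and 18.5 CPM and was highest in R3. The serpin Serpina1e, a relative of alpha-1 antitrypsin whose promoter is shown above, had 584, 580, 426, 116 and 131 CPM, which placed R1 to R3 on one side and R4 and R5 on the other. Selenbp2, a selenium-binding protein, was also high in R1 and R2, with 109, 122, 25.1, 9.17 and 12.7 CPM, but it shares 52.0% of its windows. The guanylate-binding protein Gbp11 was high in R1 and R3, with 49.4, 9.23, 50.8, 8.78 and 5.94 CPM. So were Phlda1, with 134, 26.9, 203, 34.1 and 65.1 CPM, and the transcription factor Foxq1, with 30.7, 10.6, 37.2, 5.09 and 7.64 CPM, though 66.1% of the exons of Foxq1 overlap a gene on the other strand. Id3, an inhibitor of helix-loop-helix factors, had 47.6, 15.3, 12.05, 8.28 and 9.80 CPM, and its CV of 0.630 was 0.212 without R1. The kinase gene Pim1 was also highest in R1, with a CV of 0.644 that was 0.366 without it, and the CV of Serpina4-ps1 was 0.784 in all and 0.515 without R5, its lowest library. Hamp, which encodes the iron hormone hepcidin, had 222, 406, 59.3, 101 and 121 CPM and was highest in R2, without which its CV of 0.618 was 0.472.

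**Figure D4:**
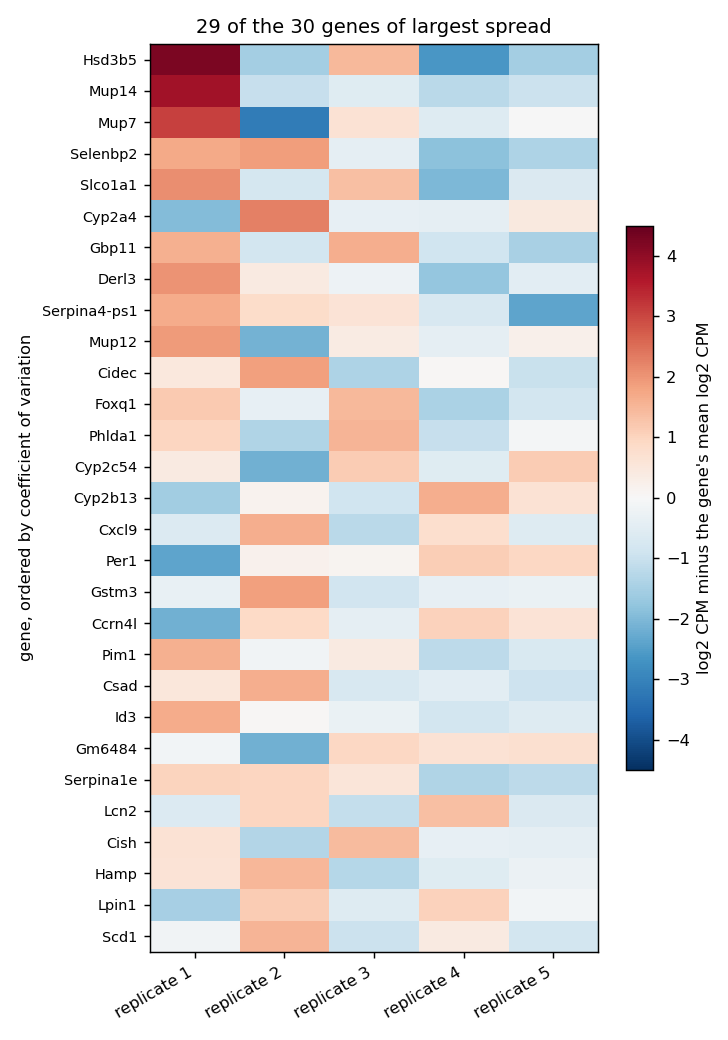
Plot of 29 of the 30 genes of largest spread among those with a mean of at least 10 CPM (downward in order of falling coefficient of variation) in the 5 control ASO libraries. Colour gives log2 CPM minus the mean log2 CPM of the gene, red for higher and blue for lower. No single library carried all of the spread, and 10 of the 30 genes were highest in R1, 9 in R2, 5 in R3, 5 in R4 and 1 in R5.

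Several lipid genes of large spread had R2 as their high library. Beside Scd1, whose CV of 0.595 was 0.345 without R2, there was Cidec, a protein that enlarges lipid droplets, with 54.5, 141, 14.99, 40.8 and 19.8 CPM and a CV of 0.733 that was 0.517 without R2. Lpin1, which makes diacylglycerol and responds to fasting, had 60.6, 384, 116, 353 and 159 CPM and was high in R4 too. Gm6484, an older symbol of Angptl8 (an inhibitor of lipoprotein lipase that is made after feeding), was lowest in R2 with 96.9, 23.3, 198, 163 and 173 CPM, and its CV of 0.628 was 0.251 without R2. The conjugating enzyme Gstm3, with 45.5, 202, 31.6, 44.0 and 46.5 CPM, depended still more on this library, since its CV of 0.667 was 0.139 without it. Csad, which makes taurine for bile salts, had 80.0, 176, 34.1, 41.3 and 29.9 CPM, with a CV of 0.640 that was 0.395 without R2. Cyp7a1, the rate-limiting enzyme of bile acid synthesis, had 138, 75.2, 293, 185 and 337 CPM and was lowest in R2.

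The list of lipid storage genes linked to high-fat feeding took 0.889, 2.32, 0.575, 1.18 and 0.696% of counts, of which Scd1 supplied 78.6%. Without Scd1 the list took 0.241, 0.255, 0.205, 0.227 and 0.285%, so the order of the libraries changed and R5 was then the highest. Plin2, the coat protein of hepatocyte lipid droplets, had 900, 921, 481, 571 and 721 CPM. Cd36, a fatty acid transporter, had 167, 257, 165, 236 and 234 CPM, and the nuclear receptor Pparg had 24.7, 28.8, 15.7, 17.9 and 19.0 CPM.

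Chaperones of the endoplasmic reticulum, which fold the secreted proteins, ordered the libraries alike. Of 36 members at 10 CPM or more, 32 were highest in R1 (26.0% of all genes were) and 31 were lowest in R4 (15.02% of all genes were). Hspa5, the main chaperone of the compartment, had 862, 522, 518, 488 and 516 CPM. Hsp90b1 had 1314, 867, 861, 701 and 779 CPM, and the lectin chaperone Calr had 1072, 818, 843, 617 and 839 CPM. Derl3, a part of the channel that removes misfolded proteins, had 51.4, 16.9, 10.8, 3.76 and 9.15 CPM, with a CV of 0.790 that was 0.469 without R1. Creld2, a disulfide-related factor, had 82.4, 32.0, 37.3, 20.5 and 21.005 CPM. Herpud1, another stress-responsive gene of the compartment, was 1 of 2 members lowest in R1, with 290, 578, 369, 618 and 522 CPM, and so went against most of the class. The class took 1.10% of counts in R1 and 0.746 to 0.888% in the other libraries, a ratio of 1.47 between the highest and lowest library, against 13.7 for Derl3.

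A motif recurred in promoters of this class. The endoplasmic reticulum stress element, CCAAT and CCACG held apart by 9 bases and searched on both strands, was in 7 of 27 chaperone promoters (25.9%) and in 16 of 9535 promoters in all (0.168%). The 60 bases around the match nearest the start are shown for the members just described, with the whole element in capitals. It reads as CGTGG, 9 bases and ATTGG where it lies on the other strand. Positions are chr2:34772004-34772063 (plus) for Hspa5, chr10:86705513-86705572 (minus) for Hsp90b1, chr8:84847055-84847114 (minus) for Calr, chr15:88819499-88819558 (plus) for Creld2 and chr10:75893221-75893280 (plus) for Derl3.
Hspa5: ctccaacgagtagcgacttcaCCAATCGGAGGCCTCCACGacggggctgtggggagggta
Hsp90b1: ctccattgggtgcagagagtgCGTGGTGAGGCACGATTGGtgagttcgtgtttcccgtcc
Calr: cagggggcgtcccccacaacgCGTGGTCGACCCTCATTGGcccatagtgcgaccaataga
Creld2: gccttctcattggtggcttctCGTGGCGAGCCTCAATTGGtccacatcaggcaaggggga
Derl3: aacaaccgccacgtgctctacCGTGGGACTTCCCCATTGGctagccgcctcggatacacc
The nearest match lay 65, 107, 162, 126 and 156 bases before the RefSeq start of Hspa5, Hsp90b1, Calr, Creld2 and Derl3, and Hsp90b1 held 2 matches. The search does not show which factor, if any, was bound in these livers.

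Cholesterol synthesis also had R1 as its high library. Of 29 members at 10 CPM or more, 20 were highest in R1 (26.0% of all genes were). The class took 0.615, 0.440, 0.443, 0.440 and 0.481% of counts. Hmgcs1, an early enzyme of the pathway, had 696, 220, 290, 250 and 309 CPM. Sqle, which oxidizes squalene, had 106, 29.9, 51.8, 41.0 and 57.3 CPM, and Cyp51 had 238, 79.5, 140, 91.4 and 142 CPM. The levels in R1 lay above those of all other libraries in each case.

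Several clock, glucocorticoid and fasting genes had R1 as their low library and R4 as their high one. Per1 (ENSMUSG00000020893.17, chr11:69095217-69109960), a repressor of the circadian clock, had 8.19, 48.8, 46.0, 91.4 and 80.7 CPM, and its CV of 0.669 was 0.272 without R1. Ccrn4l, a rhythmic gene that encodes nocturnin, had 19.2, 161, 64.96, 175 and 130 CPM, with a CV of 0.655 that was 0.330 without R1. Per2 had 29.4, 48.9, 53.9, 73.6 and 69.6 CPM and was lowest in the same library. Of 15 clock genes, 8 were lowest in R1, where 19.4% of all genes were. Others of the class went against these, since Nr1d1 had 124, 86.5, 95.5, 61.5 and 95.1 CPM and Dbp had 114, 151, 162, 104 and 109 CPM. The study's methods describe a morning fast and necropsy in the early afternoon for most of its mice. They do not give the hour at which each of these livers was taken, so a part of time of day in these values was not tested.

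The glucocorticoid target Tsc22d3 had 41.0, 148, 130, 302 and 243 CPM, the same order of R1 below all others and R4 above. Pck1, the gate of glucose production, had 1073, 3010, 1655, 3035 and 2156 CPM, and the tyrosine enzyme Tat had 786, 1618, 980, 2514 and 1558 CPM. Alas1, the first enzyme of haem synthesis and a gene induced by fasting, had 294, 919, 840, 1190 and 1017 CPM. Of 18 fasting and feeding genes, 11 were highest in R4 (19.0% of all genes were) and the remaining 7 in R2 (21.9% of all genes were). Of 23 acute phase genes, 17 were also highest in R4 (19.0% of all genes were). Saa1, an acute phase apolipoprotein, had 138, 245, 75.9, 348 and 84.7 CPM, and Lcn2, an iron-trapping protein of inflammation, had 32.4, 98.2, 23.8, 129 and 32.1 CPM, which put R2 beside R4.

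The promoter searched for Per1 held 1 E-box (CACGTG, searched on both strands), the element through which clock factors act. The window around it, chr11:69098756-69098815 on the plus strand, is printed with the E-box in capitals because the gene had the largest CV of the clock class.
Per1: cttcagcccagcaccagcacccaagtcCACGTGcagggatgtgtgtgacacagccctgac
It lay 166 bases before the RefSeq start that was used, which for Per1 lies within the gene, downstream of the gene start given above. The bases before that gene start were not searched. An E-box was in 3 of 12 clock promoters and in 8.63% of all promoters.

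Markers of the cells between the hepatocytes were highest in R2. All 14 stellate cell and fibroblast markers at 10 CPM or more were highest there, as were 9 of 9 Kupffer cell and macrophage markers, 4 of 4 MHC class II genes and 13 of 16 endothelial markers (11 after other scalings), while R2 was the highest library for 21.9% of all genes. MHC class I and peptide loading genes, which hepatocytes express too, were highest in R2 in 12 of 14 cases (11 after other scalings). Kupffer cell and macrophage markers summed to 0.0272, 0.0625, 0.0324, 0.0393 and 0.0297% of counts. Stellate cell and fibroblast markers summed to 0.0561, 0.0875, 0.0421, 0.0527 and 0.0498%. Cd74, the invariant chain that guides class II molecules, had 30.8, 122, 29.7, 72.1 and 32.0 CPM. The chemokine Cxcl9, induced by interferon-gamma, had 11.6, 56.0, 7.71, 30.3 and 11.9 CPM, with R4 as the next highest, and its CV of 0.680 was 0.510 without R2. The fibrillar collagen gene Col1a1 had 16.3, 22.1, 3.42, 7.31 and 8.03 CPM and Col3a1 had 44.2, 72.3, 13.8, 26.3 and 31.9 CPM, and R1 came after R2 in both.

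Zonal markers differed between the same libraries. Markers of hepatocytes near the central vein were lowest in R2 in 14 of 15 cases (22.8% of all genes were) and highest in R5 in 11 of 15 (19.7% of all genes were). They took 1.71, 1.19, 2.16, 1.74 and 2.18% of counts, and 0.737, 0.540, 0.897, 0.756 and 0.983% without Cyp2e1. Glul, glutamine synthetase of the cells next to the central vein, had 1567, 999, 1455, 1430 and 1589 CPM, and the drug-oxidizing Cyp1a2 had 329, 182, 486, 291 and 542 CPM. Cyp2c54, a P450 of large spread that is not on the list, had 145, 24.2, 241, 75.8 and 242 CPM, with a CV of 0.709 that was 0.463 without R2. Periportal markers took 0.898, 1.31, 1.05, 1.36 and 1.19% of counts, highest in R4 and R2 and lowest in R1. The serine dehydratase Sds, a periportal enzyme, had 150, 380, 139, 279 and 109 CPM. Hepatocyte defining markers themselves differed by a ratio of 1.12 between the highest and lowest library, but their sum rests mostly on a few very abundant members. Without the 10 most abundant genes of the libraries, the list took 2.21% ± 0.257 of the remaining counts (SD, n = 5), a larger spread for its size. The part of cell composition or sampled lobe in these differences was not tested.

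**Figure D5:**
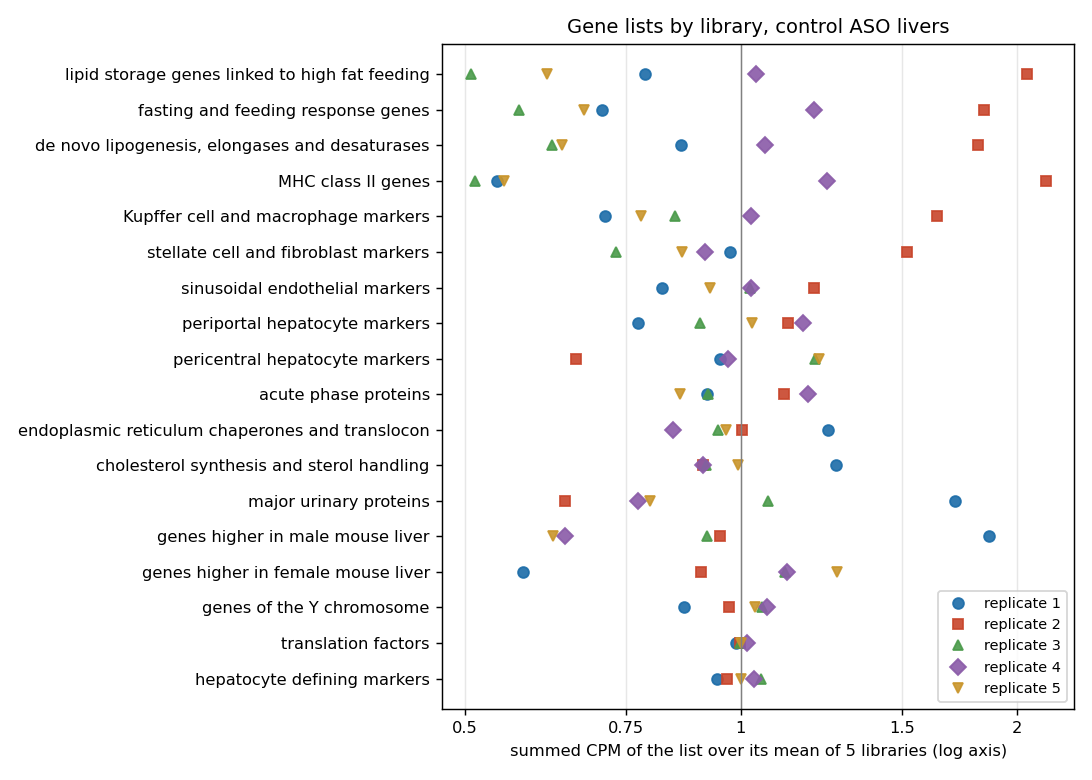
Summed CPM of 18 gene lists in each control ASO library, divided by the mean of the list over the 5 libraries (log axis, 1 marks the mean). R2 was highest for lipid storage genes, MHC class II genes and macrophage markers, R1 for male-higher genes and major urinary proteins, and sums of translation factors and hepatocyte markers stayed near 1 in all libraries.

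At the other end, the smallest CV was that of Actr8 (ENSMUSG00000015971.5, chr14:29978337-30006354), a subunit of a chromatin remodeller, with 28.5, 28.9, 28.0, 28.6 and 29.0 CPM and a CV of 0.0850. Ppig, a cyclophilin linked to splicing, had 24.4, 24.4, 24.3, 24.0 and 24.0 CPM. The 30 genes of smallest CV, among them the kinase Tbk1, the histone methyltransferase Setdb1, the clamp loader subunit Rfc1 and the exocyst subunit Exoc3, all had means of 24.2 to 38.0 CPM. Rpe, of the class of sugar metabolism, was also among them. The median CV was lowest at 30 to 100 CPM, and edgeR draws values toward the trend. A place among the 30 therefore depends on level as well as on spread. CVs of the 30 ran from 0.0850 to 0.0873, so their order among themselves carries no weight. In plain CPM the SD was 1.32% of the mean for Actr8 and 1.34% for the far more abundant Eef2.

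Promoters of the 3 sets differed in composition. Among genes of the 100 largest CVs, 8.00% of promoters held TATAAA on the sense strand between 45 and 15 bases before the start, as did 9.62% among the 100 genes of highest TPM, 0 of 81 among the 100 of smallest CV and 1.44% of all. The median ratio of observed to expected CpG in the 250 bases was 0.375 for the genes of largest CV, 0.308 for those of highest TPM, 0.777 for those of smallest CV and 0.735 for all genes. Absence of these letters from the window says nothing of a promoter outside it.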

How the data were processed

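RNA-seq of liver was carried out by the authors with single-end reads of 50 bases from strand-preserving mRNA libraries. Per the submitters' processing notes and the methods, reads were trimmed with Trim Galore 0.3.3, checked with FastQC 0.11.3 and aligned with STAR to mm10 (GRCm38). The deposited table holds whole-number counts of reads for each gene symbol, with no normalization by the authors. The strand setting of the counting was not given in the sources used here. Another 10 columns of the table fit no label and were left out, and the columns of the other ASO group were not analysed here.

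CPM used total counts. TPM used lengths of GENCODE M21 principal transcripts, and 366 of 24411 genes, among them the ribosomal precursor Rn45s, had no match. Genes of mitochondrial DNA were not analysed here. Genes below 1 CPM in every library (12390, 50.8%) were removed, counts were normalized by upper quartile, and CVs came from edgeR 4.0.16 tagwise dispersions with an intercept-only design, ranked from a mean of 10 CPM. The step was tested on simulated data. No test was made, since there is 1 group. Shared sequence was the percent of a gene's 50-base windows found elsewhere.

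The members and the 47 classes and 11 further lists were chosen with earlier results of these data known. Named genes are the 30 of highest CPM and of highest TPM, the 6 leading members of each class, the 30 of largest and 30 of smallest CV, the most and least variable member of each class, and members of the 11 lists. Apoa4, Cyp4a10, Cyp51, Cyp7a1, F2, Gapdh, Hbb-b2, Lars2, Malat1, Mki67, Neat1, Per2, Saa1, Sqle, Top2a and Tsc22d3 are outside this rule and were chosen after their values were seen. A few genes are not reported here by name. Counting precision is limited by depth. No intervals for counting error are given, and for genes named under 1 CPM the counts stand beside the values. Alternatives changed the normalization (TMM, RLE, none), the filter, the floor in CPM, the measure of spread (DESeq2 1.42.0 dispersions, CV of CPM, SD of log2 CPM) and the scale, or left out each library. Other scaling factors for the library patterns, and dropping members with shared sequence, were chosen after seeing the data. Software was R 4.3.3, Python 3.11.15, numpy 2.4.6, pandas 2.3.3 and matplotlib 3.10.9.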

Additional observations from a re-analysis of the deposited data

Results flagged for a closer look

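The values below stood apart within the group by Dixon's ratio, the gap between the highest or lowest library and its nearest neighbour divided by the range of all 5 libraries, which chance brings above 0.71 in about 1 in 20 groups. Among the 7601 genes with a mean that reached 10 CPM the ratio was above this value for 411 (5.41%), which is near that rate.

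Of 57 gene lists, 4 exceeded it. DNA replication and mitosis genes (ratio 0.7982) took 0.0179% of counts in R2 and 0.00843 to 0.0103% in the others. The list of Mboat7 and neighbouring acyltransferase genes (0.7381) took 0.0527% in R2 and 0.0468 to 0.0483% in the others, a small difference. Cholesterol synthesis (0.7687) and genes higher in male liver (0.7383) were both highest in R1.

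Of 116 genes named in the text, 15 exceeded it, and since many of them were named for their spread this count is no measure of the group. The 10 that were highest in R1 were Mup14 (0.9801), Hspa5 (0.9097), Hsd3b5 (0.862), Mup7 (0.8257), Id3 (0.8203), Hmgcs1 (0.8134), Elovl3 (0.8079), Hsp90b1 (0.7289), Creld2 (0.7287) and Derl3 (0.7248). The 4 that were highest in R2 were Gstm3 (0.9124), Mki67 (0.8341), Top2a (0.8244) and Cyp2a4 (0.7609). The pericentral enzyme Glul (0.7303) was set apart by a low value in R2. They thus fall on the libraries that the principal components separate, and on R1 they are genes of the male-higher, major urinary protein, chaperone and cholesterol lists together with Id3.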

How the results depend on the processing

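The 30 leading genes by CPM were the same 30 whichever library was left out, and 50% of counts then lay in 184 to 188 genes, or in 94 by counts per kilobase. Per kilobase, the shares of the main classes were 17.1% for plasma carriers, 12.4% for apolipoproteins, 3.92% for urea and amino acid enzymes, 2.57% for coagulation factors and 2.44% for fatty acid oxidation. Without the 10 most abundant genes they were 3.20%, 2.90%, 5.31%, 4.36% and 3.54%, with 2.07% for cytochrome P450 genes. The count of 58 genes above a CV of 0.5 depended on the measure and the floor, with 56 to 60 under other normalizations, 85 by DESeq2, 89 by the CV of CPM less counting error, 160 from 1 CPM and 28 from 50 CPM, and 43 to 60 with a library left out. Of the 30 genes of largest spread, 29 or 30 were shared under other normalizations, 24 with the CV of CPM, 11 with a floor of 1 CPM, 16 with 50 CPM and 20 to 26 with a library left out. The common CV was 0.146 to 0.182 with a library left out. The remaining shares of lists moved by more than 1 SD in 75 of 102 values on these other scales. With a library left out, 0 of 255 moved by that much. This count was fixed in advance, because leaving out 1 of 5 values cannot shift their mean by 1 SD. It therefore does not show that the shares are independent of single libraries. No paired analysis was possible because there is a single group and no test. Depth limits the genes under 10 CPM, where counting error is a larger part of the spread.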

Other observations

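The 45S ribosomal RNA precursor Rn45s, which a library selected for polyadenylated RNA should mostly lack, had 5398, 4956, 6077, 3772 and 2834 CPM in R1 to R5 and was the 20th gene by CPM. Lars2, whose transcript holds a stretch that resembles ribosomal RNA, had 319, 338, 436, 250 and 189 CPM, in which R3 was likewise highest and R5 lowest. The nuclear RNAs Malat1 and Neat1 had 505 to 670 and 333 to 585 CPM. Rn45s had no transcript length in the annotation and stays out of the TPM values.

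Proliferation genes were low in all libraries. Mki67 had 4.15, 14.0, 2.19, 3.08 and 3.39 CPM and Top2a had 2.60, 7.14, 1.63, 2.11 and 2.56 CPM, both highest in R2. Nuclear genes of the respiratory chain were highest in R1 in 48 of 71 cases and in 43 to 44 after other scalings. Those of the mitochondrial ribosome were highest there in 40 of 72 cases and in 28 to 29 after other scalings. In plain CPM, R1 was the highest library for 26.0% of all genes. The share of all genes under the other scalings was not computed, so the rescaled counts have no background to be read against.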
